A study of Mus musculus with 4 samples.

Results

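The genes described here are 8 targets of the transcriptional co-activator YAP: Ccn1, Ccn2, Edn1, Amotl2, Ajuba, Lats2, Axl and Ankrd1. They were chosen by name as known targets, and are 8 of the 33697 features counted in each of 4 single-cell RNA libraries of mouse trachea. Each gene was read in every library as a whole and in cells gated on marker genes: basal (Trp63 and Krt5), secretory (Scgb1a1), hillock (Krt13 and Krt4), fibroblast (Col1a2), chondrocyte (Acan) and Pecam1-expressing cells.

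The 4 libraries were knockout dorsal, control dorsal, knockout ventral and control ventral trachea, 1 library for each. Knockout mice were Ctnnb1-fl/fl and control mice Ctnnb1-fl/+. All carried P63-CreER (a tamoxifen-inducible Cre), Ki67-lsl-Dre (the recombinase Dre, made once Cre has acted and Ki67 is on) and Rosa26-rsr-GFP (a GFP reporter that Dre switches on). Both genotypes received tamoxifen and both carry a floxed Ctnnb1 allele, so control basal cells can lose 1 of their copies of the gene and knockout basal cells both. The Cre is driven by the P63 locus, active in basal cells, the stem cells of the airway epithelium. A basal cell in which Cre has acted and that then divides is thus labelled for good. Tracheae were taken 10 days after tamoxifen, divided into dorsal and ventral parts, dissociated with papain and loaded without a sort. Neither the age of the mice nor the number of animals per library is stated by the labels.

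The Hippo pathway is a kinase cascade in which MST kinases with SAV1 activate the LATS kinases, which phosphorylate YAP and its relative TAZ and keep them out of the nucleus. Unphosphorylated YAP binds TEAD factors on DNA and switches on a small set of genes, many of which answer within hours to cell stretch, spreading, loss of contacts and serum. In the mouse airway YAP is known for maintaining basal stem cells, and beta-catenin, the product of Ctnnb1, links cadherins to the cytoskeleton and is the co-activator of Wnt signalling. Among the 8 products, CCN1 and CCN2 are secreted matrix proteins that bind integrins, and EDN1 is the precursor of the vasoconstrictor peptide endothelin. AMOTL2, AJUBA and LATS2 act back on the pathway: AMOTL2 retains YAP at junctions, AJUBA binds and restrains LATS kinases, and LATS2 phosphorylates YAP. AXL is the receptor tyrosine kinase for GAS6, and ANKRD1 is an ankyrin-repeat protein of nucleus and sarcomere best known from heart and muscle.

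The upstream DNA of 4 of these genes is shown because it carries the letters that TEAD factors read, CATTCC or its complement GGAATG, in capitals. The sequences are the 250 bases before the annotated start, 5′ to 3′ on the gene's own strand, from RefSeq (GRCm38.p6, mouse GRCm38). Ccn1 and Edn1 are members with a lower level in knockout dorsal basal cells, and Ajuba and Ankrd1 each hold the motif at 2 places. For Ajuba the bases after this annotated start shared no run of 15 bases with a GENCODE transcript of the gene, so its start, and the positions counted from it, are less certain than those of the other 7 promoters in the table.
Ccn1 (chr3:145649986-145650235, minus strand): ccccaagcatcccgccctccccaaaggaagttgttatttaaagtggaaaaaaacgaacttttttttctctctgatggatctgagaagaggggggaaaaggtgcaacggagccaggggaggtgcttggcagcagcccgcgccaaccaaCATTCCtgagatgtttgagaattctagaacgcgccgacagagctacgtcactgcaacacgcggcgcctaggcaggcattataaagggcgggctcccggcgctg
Edn1 (chr13:42301226-42301475, plus strand): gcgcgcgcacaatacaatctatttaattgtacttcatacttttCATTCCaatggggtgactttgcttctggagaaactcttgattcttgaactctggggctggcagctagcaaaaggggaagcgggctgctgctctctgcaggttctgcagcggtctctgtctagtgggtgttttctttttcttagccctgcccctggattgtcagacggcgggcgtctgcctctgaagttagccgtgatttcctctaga
Ajuba (chr14:54577662-54577911, minus strand): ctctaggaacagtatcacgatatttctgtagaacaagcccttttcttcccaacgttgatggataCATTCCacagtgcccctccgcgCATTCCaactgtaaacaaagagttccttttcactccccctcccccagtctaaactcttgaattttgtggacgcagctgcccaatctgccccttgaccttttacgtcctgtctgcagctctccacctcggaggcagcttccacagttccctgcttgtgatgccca
Ankrd1 (chr19:36119845-36120094, minus strand): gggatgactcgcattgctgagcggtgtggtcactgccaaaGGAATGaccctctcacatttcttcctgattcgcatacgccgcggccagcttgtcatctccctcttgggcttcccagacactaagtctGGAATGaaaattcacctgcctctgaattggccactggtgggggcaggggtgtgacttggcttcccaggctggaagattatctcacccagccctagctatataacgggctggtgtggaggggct
Of the 8 genes, 7 were in the promoter table, and 6 of these 7 held CATTCC or GGAATG in the 250 upstream bases. Over all 27025 genes of the table, 14.4% held it in at least 1 promoter. Counted from the start, the first base of the motif was at -103 in Ccn1, -207 in Edn1, -186 and -164 in Ajuba, -210 and -123 in Ankrd1, -65 in Amotl2 and -233 in Axl. Neither of the 2 Lats2 promoters in the table held it. The AP-1 letters TGANTCA, which 7.82% of genes hold, were in none of the 7 genes' windows, and neither was the CArG box of serum response factor, held by 1.62% of genes; both strands were searched for all 3 motifs. A match is a match of letters and no evidence of binding.

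The libraries held between 6744 and 13962 barcodes and between 144851737 and 286711618 UMIs (counted RNA molecules), and 6032 to 12544 cells were kept per library. Any 2 libraries shared 21 to 57 barcodes, 0.311% to 0.511% of the smaller. The gates took 502 to 1848 basal, 442 to 3627 secretory, 1068 to 2031 fibroblast, 30 to 418 chondrocyte and 77 to 508 Pecam1-positive cells per library. Hillock cells numbered 81 in knockout dorsal and 413 in control dorsal trachea, but 1 and 13 in the knockout and control ventral libraries, and groups under 50 cells were not compared. In the secretory, fibroblast and chondrocyte gates the gate's own check markers had the highest sum of all marker lists. The Pecam1 gate went against an endothelial label: 33.8% of its cells in knockout dorsal, 53.9% in control dorsal, 39.8% in knockout ventral and 40.4% in control ventral trachea had a UMI of the endothelial cadherin Cdh5. Its 10 endothelial markers summed to 1797 to 3934 CPM (UMIs of a gene or list per 1000000 UMIs of the gated cells), against 7785 to 34821 for 8 secretory markers, so the cells are called Pecam1-gated here. In the basal gate 9 basal markers summed to 6890 to 7669 CPM, 9 hillock markers to 6225 to 11252 and 8 secretory markers to 24224 to 30586. Its ciliated markers summed to 589 to 879, its fibroblast markers to 317 to 406 and its macrophage markers to 113 to 176. Gland markers there summed to 65.8 in knockout dorsal, 127 in control dorsal, 741 in knockout ventral and 557 in control ventral trachea. Smooth muscle, endothelial and lymphocyte markers of this gate summed to at most 34.0 CPM each. The hillock markers of dorsal hillock cells summed to 29841 CPM in the knockout and 26630 in the control library, and their secretory markers to 28442 in the knockout and 36333 in the control library. The secretory sum was thus above that of the gate's own markers in basal cells of all 4 libraries and in control dorsal hillock cells. In dorsal basal cells the hillock sum was also above the basal sum, 10504 against 6890 in knockout and 11252 against 7653 in control trachea. It was below in ventral basal cells, 6225 against 7212 in knockout and 6957 against 7669 in control trachea. Basal markers summed to 10548.5 in knockout dorsal and 11765 in control dorsal hillock cells, above their sums in basal cells.

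Levels are given as CPM, with exact 95% Poisson intervals. There are no replicates within a condition, and no test between conditions was run. Intervals of levels, ratios and shares cover counting error alone, and in these pools fewer expressing cells and less RNA per cell cannot be told apart from a summed level. A gene is called higher or lower when its ratio is at or beyond 1.5-fold, its 95% interval (exact, conditional on the 2 counts) leaves out 1, and 1 of the 2 libraries holds at least 10 UMIs. The targeted gene came first. Ctnnb1 was at 209.9 CPM in knockout dorsal and 283.5 in control dorsal basal cells, and at 232.8 in knockout ventral and 294.8 in control ventral ones. In fibroblasts, which are not known to use the P63 promoter that drives the Cre, it was at 98.9 in knockout dorsal and 124.8 in control dorsal trachea, and at 129.7 in knockout ventral and 154.9 in control ventral trachea. The libraries count the 5′ end of transcripts, so a tag outside the deleted exons does not check the deletion.

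**Figure D1:**
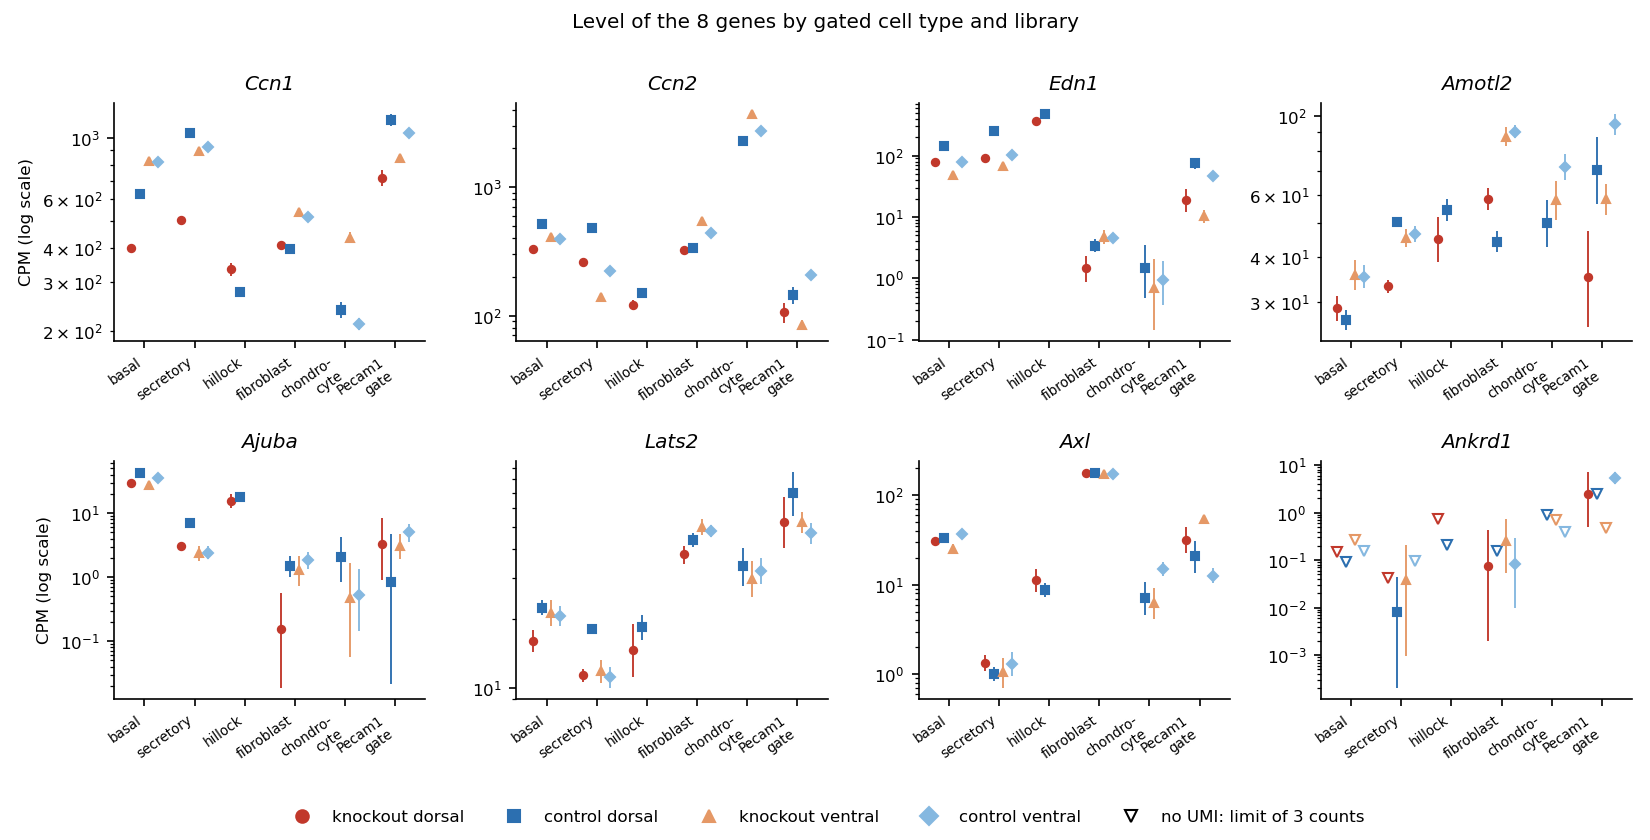
Level of each of the 8 genes (CPM, log axis) in 6 marker-gated cell groups, 1 symbol per library with its 95% Poisson interval; groups under 50 cells are left out, and an open triangle marks the limit that 3 counts set where no UMI was found. Axl peaks in fibroblasts at 170 to 177 CPM, Ccn2 in chondrocytes at 2286 to 3664, and Ajuba in basal cells at 27.9 to 42.5.

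The 8 genes did not share 1 pattern over cell types. Ccn1 was found in every type: in Pecam1-gated cells it was at 714 CPM in knockout dorsal and 1161 in control dorsal trachea, and at 848 in knockout ventral and 1042 in control ventral trachea. In the Pecam1-gated cells that had a Cdh5 UMI it was higher still, 1107 in knockout dorsal, 1502 in control dorsal, 1199 in knockout ventral and 1707 in control ventral trachea. Secretory cells had 503 to 1045, basal cells 398 to 821 and fibroblasts 396 to 540, and these ranges overlap. Hillock cells had 334 in knockout dorsal and 277 in control dorsal trachea, among the lower levels of Ccn1.

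Ccn2 was highest in chondrocytes, the cartilage cells in which this growth factor is known to act. It was at 2286 CPM in control dorsal, 3664 in knockout ventral and 2728 in control ventral chondrocytes. The 30 knockout dorsal chondrocytes, too few to compare, had 2137. Every other group of at least 50 cells was at 548 or less, and the lowest was knockout ventral Pecam1-gated cells at 84.2. In ventral trachea chondrocytes made 36.2% of all Ccn2 UMIs in the knockout and 32.8% in the control library, while they held 3.12% of the knockout and 3.99% of the control library's UMIs.

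Edn1 was highest in the epithelial gates. Hillock cells, the stratified patches of airway epithelium, had 364 CPM in knockout dorsal and 473 in control dorsal trachea. Secretory cells had 66.7 to 253 and basal cells 49.0 to 144, which overlap, and fibroblasts and chondrocytes had 4.80 or less. Endothelial cells are the textbook source of endothelin. Pecam1-gated cells, a mixed group, had 18.8 in knockout dorsal, 75.8 in control dorsal, 10.2 in knockout ventral and 46.8 in control ventral trachea. Those with a Cdh5 UMI had 1.60 in knockout dorsal, 59.1 in control dorsal, 3.83 in knockout ventral and 24.9 in control ventral trachea. The first of these rests on 1 UMI in 26 cells. With each cell thinned to 5000 UMIs, 69.6% of knockout dorsal and 71.9% of control dorsal hillock cells had an Edn1 UMI (unthinned 95.1% in knockout dorsal and 90.3% in control dorsal). In control ventral chondrocytes, a type that should lack it, the share was 0.796% (unthinned 1.44%), at median depths of 47221 UMIs in knockout dorsal hillock cells, 28036 in control dorsal hillock cells and 16409.5 in these chondrocytes.

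The 3 genes that act back on the pathway separated. Ajuba was a basal transcript, at 29.1 CPM in knockout dorsal, 42.5 in control dorsal, 27.9 in knockout ventral and 35.8 in control ventral basal cells. Hillock cells had 15.7 in knockout dorsal and 17.7 in control dorsal trachea, secretory cells 2.36 to 6.94, and fibroblasts 1.82 or less. Lats2 and Amotl2 were higher in fibroblasts than in basal cells in all 4 libraries. Lats2 was at 37.9 to 49.8 in fibroblasts and 46.8 to 69.9 in Pecam1-gated cells, against 15.9 to 22.3 in basal, 11.2 to 18.0 in secretory and 14.7 to 18.4 in dorsal hillock cells. Amotl2 was at 44.3 to 90.4 in fibroblasts and 35.2 to 94.8 in Pecam1-gated cells, against 26.7 to 35.7 in basal, 33.2 to 50.3 in secretory and 45.0 to 54.6 in dorsal hillock cells. The fibroblast, Pecam1-gated, secretory and hillock ranges of Amotl2 overlap.

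Axl marked fibroblasts, with 174 CPM in knockout dorsal, 177 in control dorsal, 172 in knockout ventral and 170 in control ventral trachea. The 4 intervals overlapped one another. Basal cells had 25.2 to 36.7 and secretory cells 1.01 to 1.35. In thinned cells 46.5% to 49.4% of fibroblasts but 0.618% to 1.26% of secretory cells had an Axl UMI (unthinned 64.2% to 69.1% and 2.84% to 5.56%), although secretory cells were deeper, with median depths of 27467.5 to 56663 UMIs against 9229 to 11987.5 in fibroblasts.

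Ankrd1 was close to absent. No UMI was found in 824 knockout dorsal, 1848 control dorsal, 502 knockout ventral or 824 control ventral basal cells, and the limit that 3 counts set was 0.0893 to 0.262 CPM in these groups. Over whole libraries it had 5 UMIs in knockout dorsal, 3 in control dorsal, 39 in knockout ventral and 66 in control ventral trachea. Of the 66, 45 came from 5 Pecam1-gated cells, and 1 of these cells held 26. No comparison between conditions was read from Ankrd1.

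The knockout and control dorsal basal cells differed in 3 members. Ccn1, Ccn2 and Edn1, the 3 secreted products, were lower in knockout dorsal than in control dorsal basal cells, the type that the Cre targets. Of the 7 members that passed the minimum of 10 UMIs, these 3 were called lower and 0 higher. Over all 15981 genes tested there 14.2% were called lower and 9.82% higher.

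Ccn1 was at 398 CPM (95% interval 390 to 407) in knockout dorsal basal cells and 626 (618 to 635) in control dorsal basal cells, a ratio of 0.636 (0.62 to 0.652). Ccn2 was at 332 (324 to 340) in knockout dorsal and 515 (507 to 523) in control dorsal basal cells, a ratio of 0.644 (0.627 to 0.663). Edn1 was at 78.2 (74.5 to 82.1) in knockout dorsal and 144 (140 to 148) in control dorsal basal cells, a ratio of 0.544 (0.513 to 0.575). That the intervals of these levels did not overlap between the 2 libraries follows, at such counts, from the call and adds nothing to it. Ajuba at a ratio of 0.684 (0.621 to 0.753) and Lats2 at 0.715 (0.626 to 0.814) lay just short of the 1.5-fold limit. Amotl2 at 1.08 (0.971 to 1.2) and Axl at 0.924 (0.837 to 1.02) had intervals that include 1.

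The Ccn1 and Ccn2 ratios lie near the limit as well. With ribosomal protein and mitochondrial UMIs taken out of the total, Ccn1 had a ratio of 0.684 and Ccn2 of 0.693, and Edn1, at 0.585, was the 1 member still called. Without basal cells rich in Bpifa1, a secretory transcript, the ratio was 0.683 for Ccn1, 0.667 for Ccn2 and 0.599 for Edn1, again the 1 member called. Ribosomal protein genes took 21.8% of UMIs in knockout dorsal and 16.8% in control dorsal basal cells. They were also higher in knockout dorsal than in control dorsal cells of every other gate, and the part of this in the ratios beyond that rescaling was not tested.

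In ventral basal cells Edn1 alone was called lower, and no member higher, where 4.07% of 15538 genes were called lower and 3.35% higher. It was at 49.0 CPM (45.1 to 53.3) in knockout ventral and 79.9 (76.0 to 84.0) in control ventral basal cells, a ratio of 0.613 (0.556 to 0.676). Without Bpifa1-rich basal cells the ratio was 0.783 and not called. Axl had a ratio of 0.687 (0.598 to 0.789) and Ajuba 0.78 (0.681 to 0.891), both below 1 and short of the limit. Ccn1 was at 821 in knockout ventral and 816 in control ventral basal cells, a ratio of 1.01 (0.98 to 1.03). Ccn2 was at 410 in knockout ventral and 392 in control ventral basal cells, a ratio of 1.05 (1.01 to 1.09). Lats2 at 1.03 (0.876 to 1.21) and Amotl2 at 1.01 (0.892 to 1.14) included 1.

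**Figure D2:**
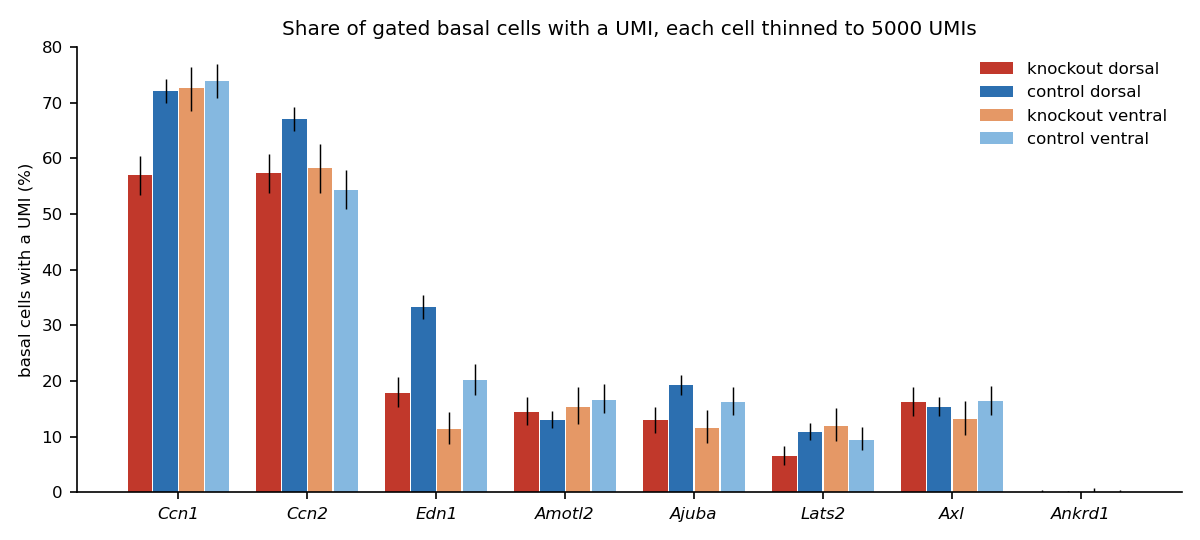
Share of gated basal cells with at least 1 UMI of each gene after every cell was thinned to 5000 UMIs (percent, bars from 0, lines are exact 95% Clopper-Pearson intervals), 1 bar per library. Edn1 was found in 17.9% of knockout dorsal and 33.3% of control dorsal basal cells, and in 11.4% of knockout ventral and 20.2% of control ventral ones.

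The shares of expressing cells at equal depth followed the same lines. Thinned to 5000 UMIs, 57.0% of knockout dorsal and 72.1% of control dorsal basal cells had a Ccn1 UMI, against 72.6% of knockout ventral and 74.0% of control ventral basal cells. Unthinned, the share was 77.8% in knockout dorsal and 86.7% in control dorsal, then 86.7% in knockout ventral and 87.6% in control ventral basal cells. For Ccn2 the thinned shares were 57.3% in knockout dorsal and 67.1% in control dorsal, then 58.2% in knockout ventral and 54.4% in control ventral basal cells. For Ajuba they were 12.9% in knockout dorsal and 19.3% in control dorsal, then 11.6% in knockout ventral and 16.3% in control ventral basal cells. Thinning left out 2 to 28 basal cells per library, and the plot of basal shares gives all 8 genes.

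Within basal cells Ccn2 was found more often in cells with a Ccn1 UMI than in cells without one. Among thinned knockout dorsal basal cells Ccn2 was in 61.7% of those with a Ccn1 UMI and 51.6% of those without. The shares with and without Ccn1 were 71.2% and 56.6% in control dorsal, 62.5% and 46.7% in knockout ventral, and 59.0% and 41.1% in control ventral basal cells. In fibroblasts the gap was wider: 54.9% with and 20.1% without Ccn1 in knockout ventral, and 50.1% with and 20.8% without in control ventral trachea. Edn1 showed no such gap with Ccn2 in basal cells: it was in 17.7% of knockout dorsal basal cells with a Ccn2 UMI and 18.3% of those without, and in 34.7% of control dorsal basal cells with and 30.4% of those without, with overlapping intervals. Cells of 1 library share its free RNA, and these shares are a description.

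**Figure D3:**
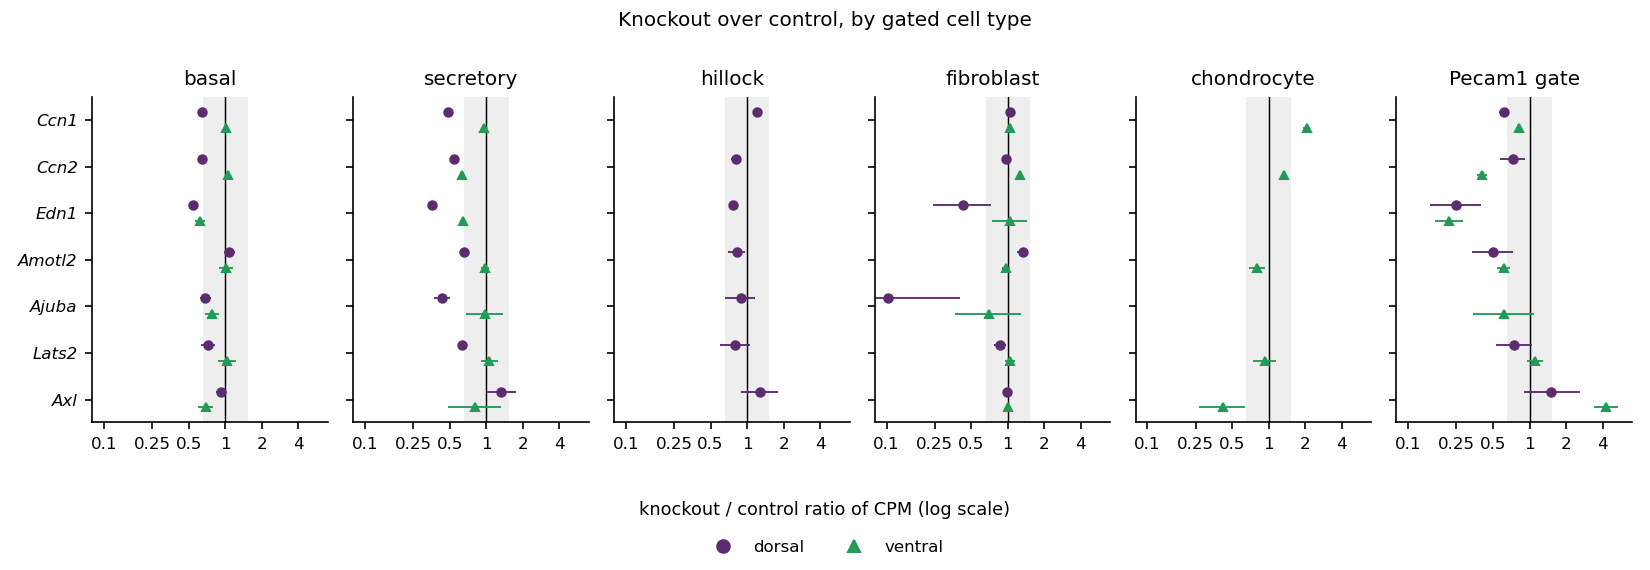
Ratio of CPM, knockout over control (log axis), for the 7 measured genes in each gated cell type, dorsal as circles and ventral as triangles, with exact 95% intervals for counting error; the grey band is less than 1.5-fold. In dorsal secretory cells 6 of the 7 genes lie left of the band, and in dorsal fibroblasts Ccn1, Ccn2 and Axl lie between 0.965 and 1.03.

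The dorsal difference was wider in secretory cells, the club and goblet lineage that basal cells give rise to. In dorsal secretory cells 6 of 7 measured members were called lower and 0 higher in the knockout, where 15.8% of 18187 genes were lower and 8.09% higher. Edn1 was at 91.3 CPM in knockout dorsal and 253 in control dorsal secretory cells, a ratio of 0.36 (0.351 to 0.37). Ccn1 was at 503 in knockout dorsal and 1045 in control dorsal secretory cells, a ratio of 0.482 (0.476 to 0.487). Ccn2 had a ratio of 0.542, Ajuba 0.434, Lats2 0.632 and Amotl2 0.659, while Axl, at 1.35 in knockout dorsal and 1.01 in control dorsal secretory cells, had 1.33 (1.01 to 1.75). Longer transcripts had lower ratios in this dorsal pair (Spearman's rho -0.12 across 17486 genes, which are not replicates). With that trend taken off, Amotl2 had a log2 ratio of -0.45 and Lats2 of -0.56, both short of 1.5-fold. Edn1 had -1.27, Ajuba -0.95, Ccn1 -0.85 and Ccn2 -0.68, still beyond it. In ventral secretory cells Ccn2 at 0.629 (0.604 to 0.655) and Edn1 at 0.64 (0.603 to 0.678) were called lower and 0 members higher, 2 of 7 lower where 6.17% of 15781 genes were lower and 3.88% higher. Ccn1 there had a ratio of 0.967 (0.951 to 0.984).

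Dorsal hillock cells had 0 of 7 members called, against 10.8% of 13132 genes lower and 7.48% higher. Their Edn1 ratio was 0.769 (0.726 to 0.813) and their Ccn1 ratio 1.2 (1.13 to 1.28).

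Fibroblasts gave a comparison outside the lineage that the P63-driven Cre targets. Ccn1, Ccn2 and Axl were within 1.5-fold in dorsal fibroblasts: Ccn1 had a knockout over control ratio of 1.03 (0.996 to 1.07), Ccn2 of 0.965 (0.928 to 1.0) and Axl of 0.983 (0.932 to 1.04). Amotl2 at 1.32 (1.2 to 1.46) and Lats2 at 0.866 (0.774 to 0.969) were also within 1.5-fold, with intervals that leave out 1. Ajuba and Edn1 were called lower, 2 of 7 where 18.7% of 15980 genes were lower and 6.82% higher. Both were low in this type: Ajuba was at 0.154 CPM in knockout dorsal and 1.5 in control dorsal fibroblasts, and Edn1 at 1.46 in knockout dorsal and 3.41 in control dorsal ones. In ventral fibroblasts 0 of 7 were called, against 4.7% of 17274 genes lower and 4.16% higher, and Ccn2 had the largest ratio, 1.26 (1.22 to 1.3).

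In ventral chondrocytes Ccn1 was at 435 CPM in the knockout ventral and 212 in the control ventral library, a ratio of 2.05 (1.92 to 2.2). It was the 1 member called higher there, where 5.59% of 13613 genes were. Axl was the 1 called lower, at 6.28 in knockout ventral and 15.02 in control ventral chondrocytes, where 7.36% of genes were lower. Ccn2 had a ratio of 1.34 (1.32 to 1.37). The 5% of these cells richest in Ccn1 held 40.5% of its UMIs in the knockout and 47.7% in the control ventral library.

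In Pecam1-gated cells Edn1 was at 18.8 CPM in knockout dorsal and 75.8 in control dorsal trachea, a ratio of 0.249 (0.15 to 0.396). It was at 10.2 in knockout ventral and 46.8 in control ventral trachea, a ratio of 0.218 (0.166 to 0.284). Amotl2 was called lower in both regions too, at 0.498 (0.336 to 0.727) dorsal and 0.616 (0.543 to 0.697) ventral. Ccn1 was called lower in the dorsal pair at 0.615 and Ccn2 in the ventral pair at 0.407. Over all genes 14.3% were lower and 7.28% higher in the dorsal pair, and 12.6% lower and 10.7% higher in the ventral pair. Axl was higher in knockout ventral than in control ventral Pecam1-gated cells, 54.2 against 12.7. The gate's make-up moved with these ratios. Its 6 thyroid markers summed to 242 CPM in knockout ventral and 13957 in control ventral trachea, and its 8 fibroblast markers to 3074 in knockout ventral and 881 in control ventral trachea. Among ventral cells with a Cdh5 UMI, 199 in the knockout and 205 in the control library, the ratio was 0.154 (0.0764 to 0.284) for Edn1, 0.342 for Ccn2, 0.534 for Amotl2 and 4.11 (1.5 to 14.0) for Axl, the last from 20 UMIs in knockout and 5 in control cells. Dorsal knockout trachea had 26 such cells, too few to compare.

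Over all cells of the dorsal libraries, where 12.3% of 22235 genes were called higher and 16.6% lower, Axl was the 1 member called higher, with 37.1 CPM in knockout dorsal and 24.6 in control dorsal trachea. Called lower were Edn1 at a ratio of 0.391, Ccn1 at 0.545, Ccn2 at 0.583 and Ajuba at 0.611. Axl was also higher in cells of no gate, 62.9 in knockout dorsal and 23.1 in control dorsal trachea, where 17% of 19840 genes were higher and 24.8% lower, and there Edn1 at 0.38, Ccn1 at 0.501, Ccn2 at 0.536 and Ajuba at 0.619 were called lower. Fibroblast markers in those ungated cells summed to 5478 CPM in knockout dorsal and 1012 in control dorsal trachea, and the part of this in the Axl values was not tested. Gated fibroblasts had 174 in knockout dorsal and 177 in control dorsal trachea.

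Between regions, Edn1 was the member with a dorsal excess in basal cells of both genotypes. The dorsal over ventral ratio was 1.6 (1.45 to 1.76) in knockout and 1.8 (1.7 to 1.91) in control basal cells. It was the 1 member of 7 called higher in each, where 7.47% of 15286 genes were higher in the knockout and 6.89% of 16192 in the control pair. Ccn1 was lower in dorsal than in ventral basal cells: the ratio was 0.485 (0.471 to 0.499) in knockout, which is called, and 0.767 (0.752 to 0.783) in control basal cells, which is not. The shares of all genes called lower were 20.8% in the knockout and 17.9% in the control pair. The Edn1 call in the knockout pair was lost with lowered gate thresholds at 1.37, with each cell counting equally at 1.43 and without Bpifa1-rich cells at 1.42. Ccn2 had a ratio of 0.809 (0.779 to 0.84) in knockout and 1.31 (1.28 to 1.35) in control basal cells.

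In control secretory cells 4 of 7 members were called higher in dorsal than in ventral trachea and 0 lower, where 8.24% of 17945 genes were higher and 10.4% lower: Ajuba at 2.87, Edn1 at 2.43, Ccn2 at 2.17 and Lats2 at 1.61. In knockout secretory cells Ccn2 alone was called higher at 1.87 and Ccn1 alone lower at 0.562, where 6.03% of 16884 genes were higher and 13% lower. Amotl2 was lower in control dorsal than in control ventral fibroblasts, 44.3 against 90.4 CPM, a ratio of 0.491 (0.453 to 0.531), where 15.5% of 17359 genes were lower and 4.38% higher. It was the 1 member called there. In knockout fibroblasts Ccn2 at 0.593, Ajuba and Edn1 were called lower and 0 higher, where 25.7% of 15655 genes were lower and 3.94% higher. Ajuba there rests on 2 dorsal and 15 ventral UMIs, and Edn1 on 19 dorsal and 56 ventral ones. Amotl2 had a ratio of 0.670 (0.61 to 0.737) in knockout fibroblasts, just short of the limit. The knockout over control and the dorsal over ventral ratios use the same 4 libraries and are not independent of each other.

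**Figure D4:**
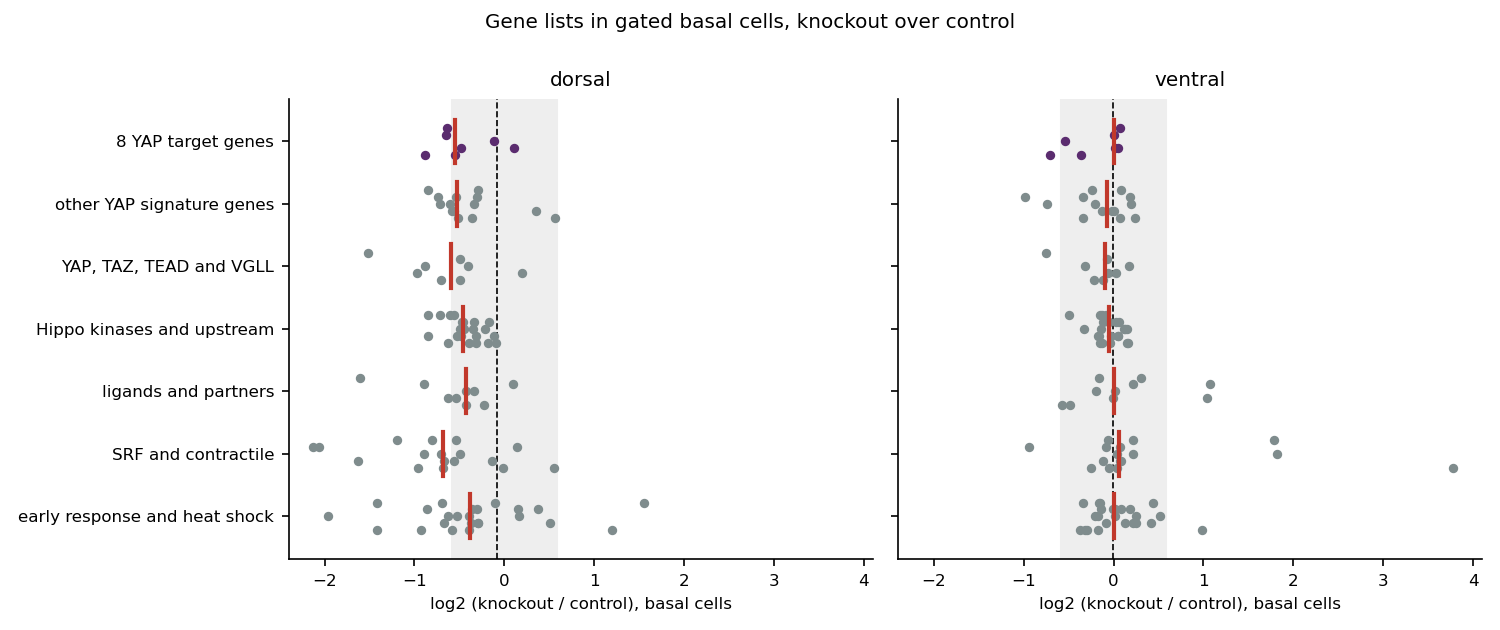
Log2 ratio of knockout over control in gated basal cells for every measured gene of 7 lists, dorsal left and ventral right; red bars are list medians, the dashed line is the median of all genes and the grey band is less than 1.5-fold. All 7 dorsal list medians lie left of the dashed line, between -0.69 and -0.38, while the ventral ones lie between -0.09 and 0.05.

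Other genes of the pathway were read from lists. Ratios and medians of the lists are given without the ribosomal rescaling and without the length trend taken off. The part of either in them was not tested. In dorsal basal cells the median log2 ratio of knockout over control was -0.55 over the 7 measured members, -0.53 over 14 other genes of YAP signatures, and -0.08 over all genes tested. Of those 14, 4 were called lower and 0 higher, where 14.2% of all genes were lower and 9.82% higher. The 3 with the furthest interval were Nt5e, an ectoenzyme that makes adenosine, at 31.2 CPM in knockout dorsal and 56.5 in control dorsal basal cells, Crim1 at 135 in knockout and 222 in control, and Dock5 at 15.3 in knockout and 25.6 in control dorsal basal cells.

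Genes of the YAP machinery were also read. Of 8 measured genes among YAP, TAZ, TEAD and VGLL factors, 4 were called lower and 0 higher in knockout dorsal basal cells, with a median of -0.60. Yap1 itself was at 30.5 CPM in knockout dorsal and 56.2 in control dorsal basal cells, a ratio of 0.543 (0.495 to 0.595). Wwtr1, which encodes TAZ, was at 52.4 in knockout dorsal and 103 in control dorsal basal cells, a ratio of 0.509 (0.475 to 0.545). Of 23 Hippo kinases and upstream genes 4 were lower and 0 higher, near the 14.2% of all genes called lower in this pair, with a median of -0.46. The 3 with the furthest interval were Wwc1 (KIBRA, an activator of LATS) at a ratio of 0.555, Map4k4 (a kinase that phosphorylates LATS) at 0.554 and Sav1 at 0.649.

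Of 9 measured ligands and partners of the member products, 2 were lower and 0 higher, also near that share. Itgav, the integrin alpha chain that binds CCN proteins, was at 52.3 CPM in knockout dorsal and 159 in control dorsal basal cells, a ratio of 0.328 (0.307 to 0.35). Gas6, the ligand of AXL, was at 52.1 in knockout dorsal and 97.0 in control dorsal basal cells, a ratio of 0.537 (0.5 to 0.575).

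Lists from outside the pathway were also lower. Over all genes of this pair 14.2% were called lower and 9.82% higher. Of 17 serum response factor and contractile genes 10 were lower and 0 higher in knockout dorsal basal cells, with a median of -0.69. Cald1, an actin-binding protein, had a ratio of 0.228 (0.198 to 0.26), and Zyx, a focal adhesion protein, had 0.322 (0.296 to 0.35). Of 24 early response and heat shock genes, which dissociation is known to induce, 9 were lower and 2 higher, with a median of -0.38. Socs3 was at 124 CPM in knockout dorsal and 485 in control dorsal basal cells, Klf6 at 834 in knockout and 2221 in control, and Nr4a1 at 279.7 in knockout and 749 in control dorsal basal cells. The heat shock genes Hspa1a, at 867 in knockout and 295 in control, and Hspa1b, at 785 in knockout and 343 in control dorsal basal cells, were higher. Ccn1 is an early response gene as well as a YAP target, and the part of handling in its ratio was not tested. Longer transcripts had lower ratios in this pair (Spearman's rho -0.20 across 15416 genes, which are not replicates, against -0.05 in the ventral pair). With that trend taken off, the ratio was 0.706 for Ccn1, 0.729 for Ccn2 and 0.604 for Edn1.

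The ventral pair showed little of this. The median log2 ratio in ventral basal cells was 0.01 for the members, -0.07 for other YAP signature genes, -0.09 for YAP, TAZ, TEAD and VGLL factors and -0.05 for Hippo kinases and upstream genes, against -0.01 over all genes. Over all genes of the ventral pair 4.07% were called lower and 3.35% higher. Tgfb2 at a ratio of 0.502 (0.392 to 0.637) and Igfbp3 at 0.596 (0.547 to 0.649) were the 2 of 14 other signature genes called lower, and 0 were higher. Of the 24 early response and heat shock genes, Egr2 alone was called, at 173 CPM in knockout ventral and 87.2 in control ventral basal cells. Of 16 contractile genes 3 were higher and 1 lower, among them Acta2 at 27.0 in knockout ventral and 1.95 in control ventral basal cells. The 8 smooth muscle and pericyte markers of the basal gate summed to 34.0 CPM in knockout ventral and 4.92 in control ventral trachea. Acta2 and Tagln, the latter at 3.05 in knockout ventral basal cells, belong to both lists. The sum is thus not separate from the called genes. Of the other markers, Des, Rgs5 and Actg2 had no UMI in knockout ventral and Des had none in control ventral basal cells. The part of smooth muscle cells in these values was not tested. Of 10 ligands and partners 0 were called.

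Between regions the lists were read against the shares of all genes called in basal cells, 20.8% lower and 7.47% higher in the knockout and 17.9% lower and 6.89% higher in the control pair; differences between the pairs were not tested. In knockout basal cells 15 of 24 early response and heat shock genes had a lower level on the dorsal than the ventral side and 0 a higher one, with a median log2 ratio of -0.87 against -0.16 over all genes. In control basal cells 6 were lower and 0 higher, with a median of -0.30 against -0.07. Of 17 contractile genes 8 were higher and 1 lower in control dorsal basal cells, led by Tpm2 at 66.2 in control dorsal and 13.6 in control ventral basal cells. In knockout dorsal basal cells 2 of the 17 were higher, Tpm2 at a ratio of 4.63 and Tagln2 at 2.82, and 6 were lower, among them Acta2 at 0.0627, Myl9 at 0.157 and Cald1 at 0.239. Of 14 other YAP signature genes 1 was higher and 6 lower in the knockout pair, and 2 higher and 4 lower in the control pair. Crim1 was lower in both, at a dorsal over ventral ratio of 0.443 in knockout and 0.629 in control basal cells, and Igfbp3 was higher in both, at 1.76 in knockout and 1.59 in control basal cells. Yap1 had a ratio of 0.454 (0.408 to 0.505) in the knockout pair, where 3 of 8 genes of YAP, TAZ, TEAD and VGLL factors were lower and 1 higher. In the control pair 0 were lower and 1 higher. Hippo kinases and upstream genes were lower in 6 of 23 in the knockout pair, near the share of all genes, and in 2 of 23 in the control pair, below it, with 0 higher in either. Of the ligands and partners 3 of 10 were lower and 1 higher in the knockout pair and 0 of 9 lower and 2 higher in the control pair.

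**Figure D5:**
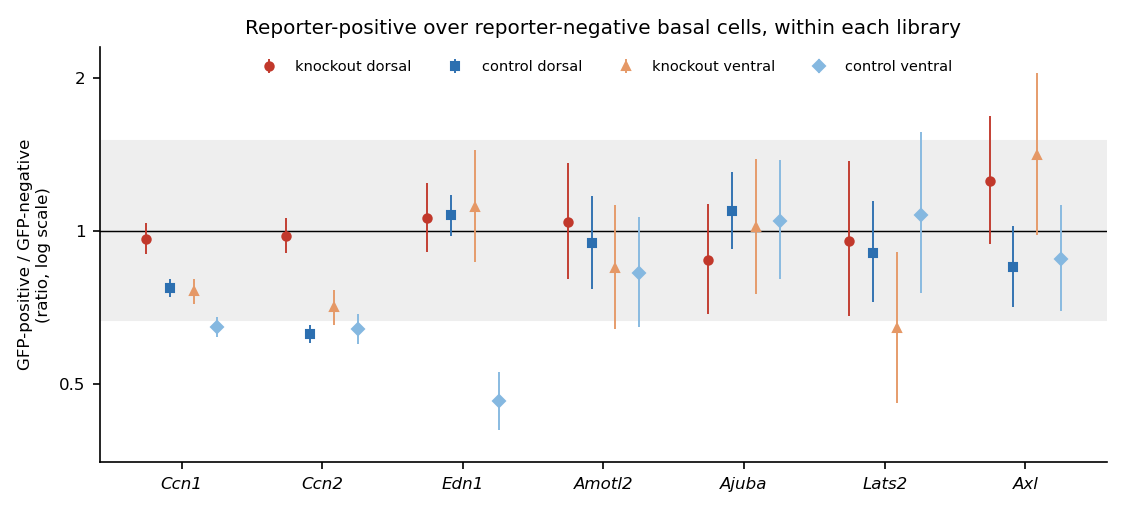
Ratio of CPM in GFP-positive over GFP-negative basal cells of the same library (log axis) for the 7 measured genes, with exact 95% intervals for counting error; the grey band is less than 1.5-fold. Ccn1 and Ccn2 lie below 1 in control dorsal, knockout ventral and control ventral basal cells and, in knockout dorsal ones, at 0.965 for Ccn1 and 0.978 for Ccn2.

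The GFP label marks basal cells in which Cre had acted and Ki67 then came on, and each library was read on its own. Cells without the label include any that Cre missed, divided or not, and such cells would keep their floxed Ctnnb1. Ratios of positive over negative cells thus do not separate division from the action of Cre, and the part of each was not tested. Cells with at least 5 eGFP UMIs were set against cells with none: 365 and 142 in knockout dorsal, 1121 and 289 in control dorsal, 156 and 121 in knockout ventral and 495 and 95 in control ventral trachea. The positive cells were deeper, with a median of 24961 UMIs against 17713.5 in negative cells of knockout dorsal trachea and 22978 against 20498 in control ventral trachea. The proliferation gene Mki67 was called higher in the positive cells of all 4 libraries. Fibroblasts, in which no label is due, had 79.9 to 118.6 CPM of eGFP against 262 to 717 in basal cells. The part of free RNA in the eGFP calls was not tested.

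Ccn2 was lower in GFP-positive basal cells of the controls, at 435 CPM in positive and 695 in negative control dorsal cells, a ratio of 0.626 (0.6 to 0.654), and at 341 in positive and 532 in negative control ventral cells, a ratio of 0.64 (0.598 to 0.686). In knockout ventral cells the ratio was 0.706 (0.653 to 0.764) and in knockout dorsal cells 0.978 (0.902 to 1.06). Ccn1 had ratios of 0.965 (0.901 to 1.03) in knockout dorsal, 0.772 (0.742 to 0.804) in control dorsal, 0.76 (0.718 to 0.804) in knockout ventral and 0.647 (0.618 to 0.678) in control ventral basal cells. Knockout dorsal trachea was thus the 1 library in which the intervals of both genes include 1. Edn1 was called lower in positive cells of control ventral trachea at 0.462 (0.405 to 0.527), while its ratios in the other 3 libraries, 1.06 to 1.11, had intervals that include 1. Lats2 was called lower in knockout ventral trachea at 0.644 (0.458 to 0.908). By library, 0 of 7 members were lower in knockout dorsal (1.9% of all genes), 1 in control dorsal (2.74%), 1 in knockout ventral (2.15%) and 3 in control ventral trachea (2.73%). No member was higher in any, against 5.11% of all genes in knockout dorsal, 3.37% in control dorsal, 3.48% in knockout ventral and 2.79% in control ventral trachea.

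The genes whose levels were most like each member over the 21 groups of at least 50 cells were found by Pearson's correlation of log2 levels among 9710 genes. The groups share libraries and cell types, so the values are descriptions. Edn1 was closest to Areg, an EGF-family ligand, at 0.976, and to the tight junction gene Cldn3 at 0.973. Ajuba was closest to Cyp2s1 at 0.969, Axl to Eif4enif1 at 0.962, Lats2 to Slc8b1 at 0.977, Ccn2 to Deptor at 0.929 with Sox5, a cartilage transcription factor, at 0.919, Ccn1 to Chrm3 at 0.901 and Amotl2 to Cltc at 0.842. No member was the closest gene of another. Among the 8, Ajuba with Edn1 had the highest correlation, 0.70, followed by Lats2 with Axl at 0.68, while Ccn1 with Ccn2 had -0.49 over these groups.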

How the data were processed

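Whole-tissue suspensions were run on the 10x GEM-X 5′ v3 chemistry, per the labels' protocols. The authors deposited raw UMI counts per gene and cell barcode, made with Cell Ranger 10.0.0 on GRCm39, per the submitters' processing notes. Barcodes under 500 genes or over 15% mitochondrial UMIs were dropped, and in each library the cells with the highest Scrublet scores (scanpy 1.11.5) were removed at 0.4% per 1000 barcodes, 153 to 702 per library. Scrublet's own threshold marked 0.223% to 2.08% and was not used, a choice made after seeing the data. Python 3.11.15, numpy 2.4.6, scipy 1.17.1 and pandas 2.3.3 were used.

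Gates were Krt5 at 5 or more UMIs per 10000 with 1 or more Trp63 UMI, Scgb1a1 at 50, Krt13 and Krt4 at 5 each, Col1a2 at 5, and Acan or Pecam1 at 2 per 10000 with at least 2 UMIs. A cell that passed hillock with basal or secretory was hillock, and one that passed chondrocyte with fibroblast was chondrocyte. Cells that passed any other 2 gates were left out, 96 to 220 per library. With 1 library per group no model was fitted. The ratio, its interval and the call were checked on simulated counts. Ratios use counts as they are, with 0.5 UMIs added for log2 medians. Other genes are named as the 3 per list and direction with the furthest interval bound in basal cells, and as the 3 most correlated genes per member, in part. The 8 genes, the lists and the rules were chosen with earlier results of these data known. Genome coordinates come from a RefSeq table of an older build (GRCm38) than the counts and serve the promoters alone.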

Additional observations from a re-analysis of the deposited data

Results flagged for a closer look

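For 8 pairs of ratios the 2 libraries of one pair moved one way and those of the other pair the opposite way, with both intervals for counting error leaving out 1. None of these differences was tested, since each ratio rests on 1 library a side. The rule set no minimum fold, so ratios well within 1.5-fold count, among them 1.05, 1.08 and 0.903 below. No share of all genes meeting the rule is given, so the 8 cannot be called many or few. Ccn2 in basal cells had a knockout over control ratio of 0.644 in dorsal and 1.05 in ventral trachea, and a dorsal over ventral ratio of 0.809 in knockout and 1.31 in control trachea. These 2 pairs arrange the same Ccn2 levels in 2 ways and are not independent of each other. Axl in basal cells had a dorsal over ventral ratio of 1.21 in knockout and 0.903 in control trachea. In secretory cells the dorsal over ventral ratio of Ccn1 was 0.562 in knockout and 1.13 in control trachea, and that of Amotl2 was 0.731 in knockout and 1.08 in control trachea.

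In Pecam1-gated cells the dorsal over ventral ratio of Ccn1 was 0.842 in knockout and 1.11 in control trachea. For Ccn2 it was 1.25 in knockout and 0.699 in control trachea, and for Axl 0.589 in knockout and 1.66 in control trachea. Both Axl ratios changed direction under other gate settings, as given below. The dorsal Axl levels rest on 39 UMIs in knockout and 25 in control cells. The gate held 77 knockout dorsal and 102 control dorsal cells, against 500 knockout ventral and 508 control ventral cells.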

How the results depend on the processing

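No paired analysis was possible because each group had 1 library and so shared fewer than 2 replicate numbers with any other, and leaving out a library would end its comparisons. The ratios recomputed were those of all measured members in basal cells and the called ones in other gates, 66 in all, of which 45 were called. Under 11 settings that change a ratio these gave 415 values, of which 411 kept their direction and 4 reversed, all 4 in the Pecam1 gate between regions. With gate thresholds lowered by a factor of 2 the dorsal over ventral ratio in the knockout was 1.26 for Axl and 0.906 for Edn1, and with cells of several gates kept that in the control was 1.30 for Ajuba and 0.871 for Axl. The 3 members called lower in dorsal basal cells became 5 with doubled gate thresholds. They became 1, Edn1, with cells of several gates kept, without ribosomal and mitochondrial UMIs, with the length trend taken off and without Bpifa1-rich cells, and 0 at 2-fold. Over all settings their ratios ran from 0.603 to 0.706 for Ccn1, 0.633 to 0.729 for Ccn2 and 0.490 to 0.657 for Edn1. The 1 member called lower in ventral basal cells became 0 at 2-fold and without Bpifa1-rich cells. The 1 called higher in dorsal over ventral knockout basal cells became 0 with lowered thresholds, with each cell counting equally, at 2-fold and without Bpifa1-rich cells, and the 1 in control basal cells became 0 at 2-fold. The length, Bpifa1 and Cdh5 settings were chosen after seeing the data. The cause of these moves was not tested. Few counts limit what can be read of Ankrd1 in every gate and of Ajuba outside the epithelium. For Edn1 they limit the values in fibroblasts, chondrocytes and dorsal Pecam1-gated cells.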
